A study of Mus musculus with 6 samples.

Results

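The 10 transcription regulators described here, grouped under the label of naive and stem-like T cell factors, were followed through activation in splenic CD3+ T cells. They were picked by gene symbol from a fixed list of 10 genes, and all 10 of them were found among the 49671 genes of the deposited tables. The stimulated cells had been cultured for 48 h with 1 µg/ml plate-bound anti-CD3 and 10 µg/ml soluble anti-CD28 (day 2), and the unstimulated cells went into lysis reagent directly after isolation (day 0), with 3 biological replicates in each group as labelled. All mice were F1 mus x cast females, daughters of C57BL/6 mothers heterozygous for a deletion of Xist and of M. m. castaneus fathers. Both groups therefore share the hybrid genome and this cross, a model of skewed X inactivation, the age of the mice is not given in the labels, and the unstimulated cells were not a cultured control, so that stimulation and time in culture cannot be told apart. The expression table holds RPKM, read counts scaled to gene length and library size, for both alleles together. The allelic table holds counts of reads assigned to the mus or the cast copy of each gene, from 9606755 to 20249376 per library.

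T cell factor 1, the product of Tcf7, and its relative LEF1 are HMG box proteins that bind DNA beside β-catenin or Groucho/TLE corepressors and keep naive and memory T cells able to self-renew. FOXO1 and FOXO3 are forkhead factors that enter the nucleus when PI3K-AKT signalling is low, and FOXP1 is a forkhead repressor that helps to hold naive T cells at rest. BACH2 restrains effector genes by competing at AP-1-like sites, SATB1 organises chromatin loops in thymocytes and T cells, ID2 and ID3 block the DNA binding of E proteins, and MYB supports the self-renewal of progenitors and stem-like T cells.

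T cell markers were abundant in both groups, while markers of other cell types were high mainly on day 0. All 14 T cell markers reached an RPKM of 1 in every library, and their summed RPKM was 1717 to 1789 in stimulated and 1763 to 2179 in unstimulated libraries. Singly, 8 of the 14 were lower after stimulation, 2 were higher and 4 were not past the test (limma, adjusted p under 0.05). On summed allelic counts (edgeR) 2 of 13 tested were lower and 4 higher, so these directions depend on scaling. The 9 B cell markers summed to 11.4 to 23.7 RPKM in stimulated and 114.9 to 225 RPKM in unstimulated libraries, and the 5 NK cell markers to 6.85 to 11.5 RPKM in stimulated and 230.4 to 327 RPKM in unstimulated libraries. For the 9 myeloid markers the sums were 4.03 to 6.98 RPKM in stimulated and 1122 to 3336 RPKM in unstimulated libraries, and Adgre1, the macrophage F4/80 gene, was listed at 0 in all stimulated libraries. The 5 dendritic cell markers summed to 0.604 to 0.825 RPKM in stimulated and 11.1 to 15.9 RPKM in unstimulated libraries, and Siglech, Xcr1 and Clec9a were listed at 0 in all stimulated libraries. Erythroid markers, 7 in number, summed to 1.56 to 12.6 RPKM in stimulated and 83.1 to 1360 RPKM in unstimulated libraries. Unstimulated replicate 3 stood apart, with the highest sums of B cell, myeloid, NK cell, dendritic and erythroid markers and with 291 RPKM over 12 cell cycle genes, against 143 and 153 RPKM in the other unstimulated libraries and 825 to 827 RPKM in the stimulated ones.

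After stimulation 9 of the 10 regulators fell and 1, Satb1, rose (limma, adjusted p under 0.05 for each). Over all 13288 genes tested, 80.1% were called by the same test, 48.9% lower and 31.2% higher. In each of the 10 genes the stimulated and unstimulated libraries did not overlap, which was also so, over all tested genes, for 50.7% in the lower and 32.7% in the higher direction. All 10 passed the filter on low values, and their median log2 fold change was -1.31, against -0.24 over all tested genes. The median over all genes was near 0 by construction after median centring (0.02) and was 0.04 after quantile normalisation and -0.06 in an edgeR fit of summed allelic counts. At unchanged scaling it was -0.07 without the filter on low values, -0.08 with an RPKM of at least 1 in all libraries, and -0.08, -0.07 and -0.04 without unstimulated replicate 1, 2 or 3, while the median of the 10 genes was -1.25 to -1.31 without any 1 of these. With those scalings 39.2%, 36.7% and 38.5% of all tested genes were called lower, and the 10 regulators kept their direction and their call, except Foxo1 after median centring and on summed allelic counts. In whole-population RNA, fewer cells of a type and less RNA per cell cannot be told apart.

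**Figure D1:**
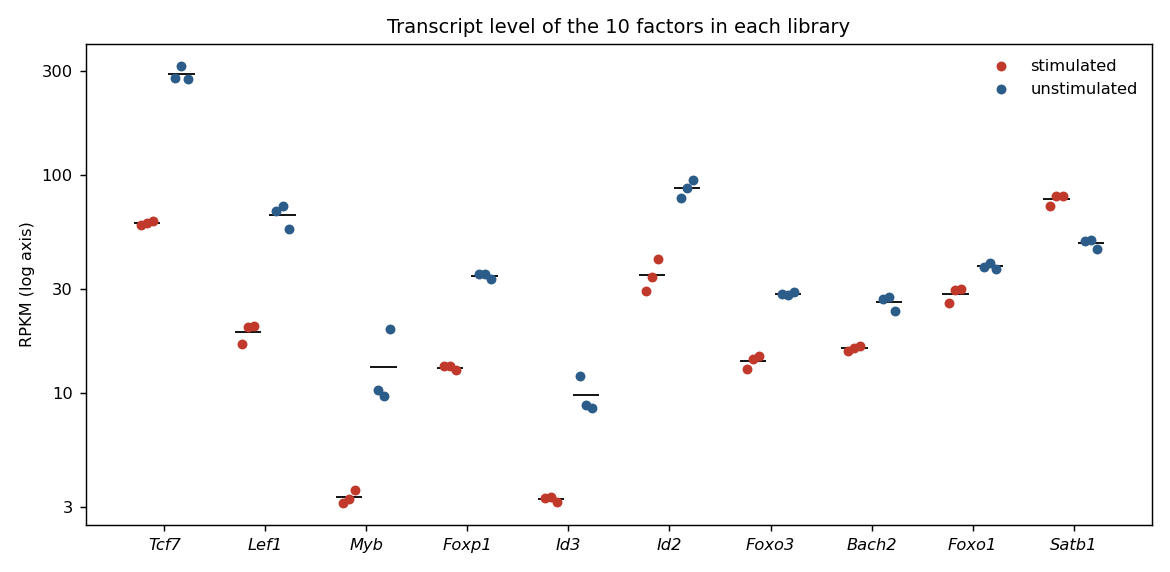
RPKM (log axis) of each of the 10 genes in the 3 stimulated (red, left) and 3 unstimulated (blue, right) libraries, with a line at each group mean, ordered by log2 fold change. Satb1 is the one gene whose stimulated libraries lie above the unstimulated ones, and Myb has a high value, 19.6 RPKM, in unstimulated replicate 3.

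Tcf7 (chromosome 11, 52252371 to 52283014, minus strand, mm10) showed the largest fall of the set in RPKM. It had 59.1, 59.98 and 61.6 RPKM in stimulated replicates 1, 2 and 3, against 279, 316 and 275 RPKM in the unstimulated ones. The lowest unstimulated library was thus far above the highest stimulated library. The means were 60.2 ± 1.28 RPKM in stimulated and 290.1 ± 22.7 RPKM in unstimulated cells (SD, n = 3 each), and the log2 fold change was -2.25 ± 0.07 (SE, limma adjusted p = 1.2e-06). Only 5.90% of the tested genes had a lower log2 fold change. Per length Tcf7 was the most abundant of the 10 genes in RPKM without stimulation and came after Satb1 with it.

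Lef1 (chromosome 3, 131110471 to 131224356, plus strand) fell as well, by a smaller factor than Tcf7. The libraries held 16.8, 20.1 and 20.2 RPKM after stimulation, against 68.0, 72.3 and 56.5 RPKM without it. The lowest unstimulated value came from replicate 3 and still exceeded every stimulated value. Mean levels were 19.1 ± 1.91 and 65.6 ± 8.18 RPKM in stimulated and unstimulated cells (SD, n = 3 each), with a log2 fold change of -1.73 ± 0.11 (SE, limma adjusted p = 1.6e-05). Exons of the antisense gene Gm43352, at 0.559 RPKM in stimulated and 3.43 RPKM in unstimulated cells, cover 13.7% of the exon bases of Lef1, and whether the authors counted by strand is not given in the sources used here.

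The stretches of 250 bases that precede the RefSeq starts of Lef1, Satb1, Bach2 and Foxp1 are shown because these genes carry the main contrasts below, namely a large fall, the one rise, and changes of allelic balance in both directions. They come from RefSeq on GRCm38.p6, use the start farthest upstream in that table, and read 5′ to 3′ on the gene's strand. Capitals mark matches to the TCF/LEF letters CTTTGA, the FOXO letters TGTTTAC, the MYB letters AACNGTT, the AP-1 letters TGANTCA or the GC box GGGCGG, on either strand. The positions are chr3:131110047-131110296 (plus strand) for Lef1, chr17:51833291-51833540 (minus strand) for Satb1, chr4:32417185-32417434 (plus strand) for Bach2 and chr6:99520994-99521243 (minus strand) for Foxp1. The gene spans given elsewhere come from GENCODE M21, whose starts differ: the RefSeq start lies 178631 bases downstream of the GENCODE start for Bach2 and 1728 bases for Foxp1, so both of these windows lie inside the GENCODE gene, while those of Lef1 and Satb1 lie before it.
Lef1: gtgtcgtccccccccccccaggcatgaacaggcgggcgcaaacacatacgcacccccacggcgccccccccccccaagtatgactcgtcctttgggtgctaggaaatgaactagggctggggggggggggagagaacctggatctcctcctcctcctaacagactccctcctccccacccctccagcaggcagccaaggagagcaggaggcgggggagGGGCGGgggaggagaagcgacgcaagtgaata
Satb1: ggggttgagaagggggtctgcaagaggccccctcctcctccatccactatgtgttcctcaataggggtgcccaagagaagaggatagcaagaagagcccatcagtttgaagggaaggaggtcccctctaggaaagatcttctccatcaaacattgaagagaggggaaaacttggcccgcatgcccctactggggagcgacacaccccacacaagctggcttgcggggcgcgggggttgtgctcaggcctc
Bach2: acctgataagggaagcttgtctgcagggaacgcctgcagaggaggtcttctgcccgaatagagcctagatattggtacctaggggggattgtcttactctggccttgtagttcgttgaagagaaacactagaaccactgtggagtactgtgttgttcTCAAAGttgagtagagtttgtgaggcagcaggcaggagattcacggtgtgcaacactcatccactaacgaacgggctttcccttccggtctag
Foxp1: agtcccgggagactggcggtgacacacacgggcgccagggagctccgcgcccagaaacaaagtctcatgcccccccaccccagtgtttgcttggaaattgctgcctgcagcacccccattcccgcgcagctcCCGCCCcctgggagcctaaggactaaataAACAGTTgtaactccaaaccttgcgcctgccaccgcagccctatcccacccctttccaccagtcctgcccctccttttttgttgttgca

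Of the 10 genes' windows of this kind, 4 lie wholly inside the GENCODE gene (Bach2, Foxp1, Id2 and Id3), so that the counts describe windows before RefSeq starts and not 1 agreed promoter per gene. A GC box was found in 8 of 10, against 32.97% of 32536 mouse windows of the same length. Those are all distinct windows, without the choice of 1 start per gene made for the 10, so the sets differ in this. The members without a GC box were Satb1 and Bach2, whose printed windows have 58.0% and 50.4% of G and C, against 66.4% for Lef1 and 60.8% for Foxp1. The TCF/LEF letters were found in 1 of 10 windows, that of Bach2, and in 13.9% of all windows. The MYB letters were found in 1 of 10, that of Foxp1, and in 3.79% of all, overlapping there with an E-box, CANNTG, which 5 of 10 windows and 66.2% of all held. Neither the FOXO nor the AP-1 letters occurred in any of the 10 windows, and they were present in 3.17% and 6.73% of all. The Tcf7 window holds 55 codons without a stop, counted from an ATG up to the window's end, the longest such stretch of the 10. It may therefore hold transcribed sequence and is not printed, though it is counted above among the windows with a GC box and with an E-box. These matches describe letters in a window and show no binding.

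Satb1 (chromosome 17, 51736187 to 51833290, minus strand) was the one gene of the set to rise. It had 72.4, 79.8 and 79.6 RPKM in stimulated replicates 1 to 3, against 49.9, 50.4 and 45.8 RPKM in unstimulated replicates 1 to 3. Each stimulated library was above each unstimulated one, and the gene became the most abundant of the 10. Its means of 77.3 ± 4.25 RPKM in stimulated and 48.7 ± 2.51 RPKM in unstimulated cells (SD, n = 3 each) correspond to a log2 fold change of 0.66 ± 0.07 (SE, limma adjusted p = 0.00011). This value was 0.92 after median centring and 0.57 after quantile normalisation. The unannotated transcript genes Gm36931 and Gm6934 share 0.820% and 0.673% of its exon bases.

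The forkhead factors separated by size of change. Foxp1 (chromosome 6, 98925338 to 99522721, minus strand) had 13.3, 13.2 and 12.7 RPKM in stimulated libraries, against 35.0, 35.1 and 33.4 RPKM in unstimulated ones. Its standard error was the smallest of the set, with a log2 fold change of -1.33 ± 0.05 (SE, limma adjusted p = 2.4e-06). Foxo3 (chromosome 10, 42181841 to 42276755, minus strand) had 12.9, 14.3 and 14.7 RPKM in stimulated libraries, against 28.3, 28.2 and 29.1 RPKM in unstimulated ones. Its log2 fold change was -0.98 ± 0.06 (SE, limma adjusted p = 1.5e-05), and -0.56 by edgeR on summed allelic counts, where it also passed (adjusted p = 8.3e-05). Foxo1 (chromosome 3, 52268336 to 52353221, plus strand) had 25.8, 29.7 and 29.8 RPKM in stimulated libraries, against 37.8, 39.3 and 37.0 RPKM in unstimulated ones.

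Although the Foxo1 libraries did not overlap as deposited, its change was the least secure of the set. The log2 fold change of -0.41 ± 0.07 (SE, limma adjusted p = 0.0015) became -0.15 after median centring (limma adjusted p = 0.15). On summed allelic counts it was 0.01 with edgeR (adjusted p = 0.93) while DESeq2 gave -0.02 (adjusted p = 0.86). After quantile normalisation it was -0.46 (limma adjusted p = 0.0013). The sign was positive only in the edgeR fit, which uses other reads and another model as well as another scaling.

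Bach2 (chromosome 4, 32238804 to 32586108, plus strand) had 15.6, 16.1 and 16.4 RPKM in stimulated libraries, against 26.9, 27.4 and 23.7 RPKM in unstimulated ones. The stimulated libraries were nearly equal and all lay below the lowest unstimulated one. The log2 fold change was -0.66 ± 0.07 (SE, limma adjusted p = 0.00014). It was -0.40 after median centring and -0.32 on summed allelic counts (edgeR adjusted p = 0.011), so the log2 value differed by over 1.5 times between these fits. Bach2, Foxo1, Foxp1 and Id3 are also expressed by B cells, of whose 9 markers 8 fell, with the sums given above. The part of B cells in these falls was not tested.

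Both inhibitors of E proteins fell. Id2 (chromosome 12, 25093799 to 25097140, minus strand) had 29.2, 34.2 and 41.3 RPKM in stimulated libraries, against 78.3, 86.8 and 94.9 RPKM in unstimulated ones, a log2 fold change of -1.30 ± 0.13 (SE, limma adjusted p = 0.00012). On summed allelic counts the change of Id2 was -1.93 (edgeR), the lowest of the 10, from few reads. Id3 (chromosome 4, 136143497 to 136145755, plus strand) had 3.29, 3.32 and 3.16 RPKM in stimulated libraries, against 11.99, 8.81 and 8.54 RPKM in unstimulated ones, a log2 fold change of -1.33 ± 0.13 (SE, limma adjusted p = 8.6e-05). Neither pair of groups overlapped, and Id2 was the more abundant per length in every library. Id2 is also abundant in NK and innate lymphoid cells, and the summed NK cell markers fell to 6.85 to 11.5 RPKM in stimulated libraries, with Ncr1, the gene of the NK receptor NKp46, at 0.705 RPKM, against 46.2 RPKM in unstimulated cells. The part of NK cells in the fall of Id2 was not tested.

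Myb (chromosome 10, 21124935 to 21160984, minus strand) had 3.13, 3.28 and 3.59 RPKM in stimulated libraries, against 10.3, 9.66 and 19.6 RPKM in unstimulated ones. The last value, from unstimulated replicate 3, stood well above the other unstimulated libraries, and all 3 lay above the stimulated ones. The log2 fold change was -1.65 ± 0.25 (SE, limma adjusted p = 0.00075), the largest standard error of the set, and -1.34 without that library (limma adjusted p = 1.3e-05). Myb is also expressed in immature haematopoietic cells, and the same library had the highest erythroid sum, 1360 RPKM, and the highest cell cycle sum of the unstimulated group. Their part in the Myb value was not tested. Between the groups all 12 cell cycle genes rose after stimulation (median log2 2.73) while Myb fell, a comparison separate from the value of that library.

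**Figure D2:**
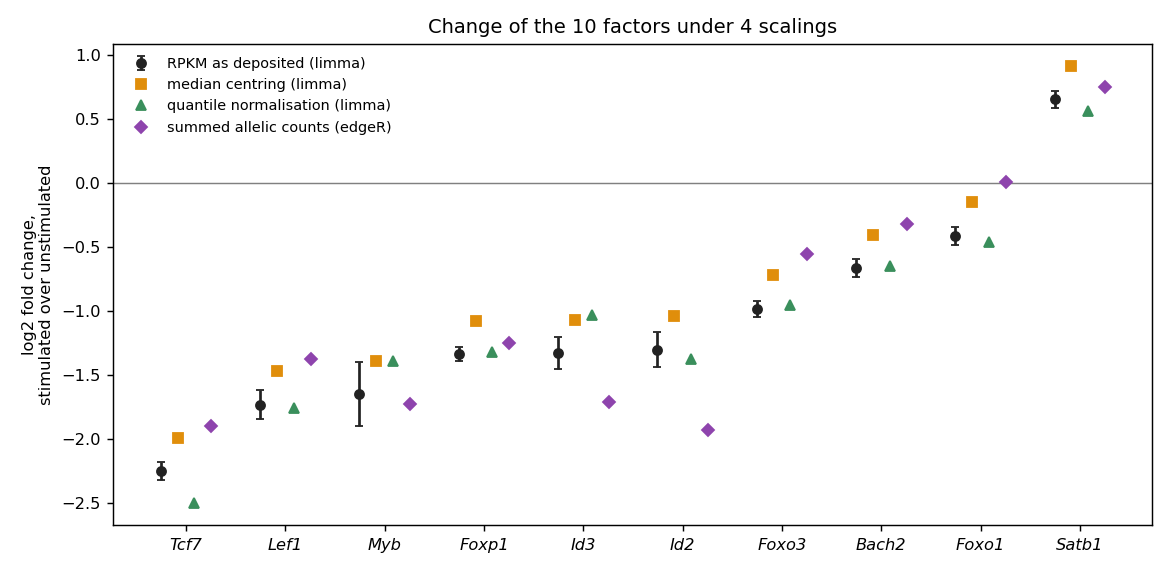
Log2 fold change of each gene, stimulated over unstimulated, from RPKM as deposited (black, with the standard error), after median centring, after quantile normalisation and from summed allelic counts with edgeR. Tcf7 is lowest except on summed allelic counts, where Id2 is at -1.93 and Tcf7 at -1.89, Satb1 stays above 0, and Foxo1 reaches 0.01 on summed allelic counts.

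The order of the 10 genes by RPKM changed with stimulation. In stimulated cells it ran Satb1, Tcf7, Id2, Foxo1, Lef1, Bach2, Foxo3, Foxp1, Myb, Id3, and the ranges of Id2 and Foxo1, of Foxo3 and Foxp1, and of Myb and Id3 overlapped. In unstimulated cells it ran Tcf7, Id2, Lef1, Satb1, Foxo1, Foxp1, Foxo3, Bach2, Myb, Id3, and only the ranges of Myb and Id3 overlapped among neighbours. Tcf7 made up 21.8% to 23.5% of the summed RPKM of the set in stimulated libraries, against 44.1% to 46.9% in unstimulated ones. Satb1 made up 28.1% to 29.1% in stimulated libraries, against 7.34% to 7.98% in unstimulated ones.

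Genes whose levels over the 6 libraries were most like those of a member were sought by Euclidean distance of log2(RPKM + 1) values centred on each gene's mean. Nearest to Satb1 were Aim1 (distance 0.0741), Cblb (0.0897), which encodes a ubiquitin ligase that limits T cell activation, and Crmp1 (0.0967). Nearest to Tcf7 were Usp28, a deubiquitinase gene (0.0597), Rflnb (0.118) and Zfp652 (0.1199). Lef1 was followed by Arrdc4, an α-arrestin gene (0.131), Gm14853 (0.133) and Foxj2, another forkhead gene (0.133). With 2 groups of 3 libraries this likeness rests mainly on an equal fold change.

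Family relatives of the 10 regulators moved both ways. Of 13 relatives 8 passed the filter on low values, of which 2 rose, 5 fell and 1, Foxp4 (log2 0.21), was not past the test as deposited but was after median centring (log2 0.47, limma adjusted p = 0.0067). The filter kept some of them through the group in which they were high, so these counts describe what was measurable. Mybl2, the proliferation-linked relative of Myb, rose to 12.5 RPKM in stimulated cells, against 2.21 RPKM in unstimulated cells (log2 2.19, limma adjusted p = 0.00054). Bach1 fell to 2.01 RPKM in stimulated cells, against 15.6 RPKM in unstimulated cells (log2 -2.46, limma adjusted p = 1.2e-06). Foxp3, the regulatory T cell factor, fell to 0.563 RPKM, against 6.50 RPKM (log2 -2.27, limma adjusted p = 4.0e-06). Tcf7l2 was at 0.0102 RPKM in stimulated and 1.15 RPKM in unstimulated cells (log2 -1.09).

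Of 13 listed partners of TCF1 and LEF1 in the tables, 11 were tested, of which 1 rose and 10 fell (median log2 -0.61). After median centring 1 rose and 6 fell, and on summed allelic counts 1 of 12 rose and 5 fell, so the smaller falls of this list depend on scaling. Tle4, a Groucho-type corepressor gene, fell to 3.62 RPKM in stimulated cells, against 29.9 RPKM in unstimulated cells (log2 -2.74, limma adjusted p = 9.0e-07). Bcl9l, which encodes a β-catenin cofactor, fell to 4.85 RPKM, against 37.6 RPKM (log2 -2.71), and Axin2, a classical target and feedback inhibitor of the Wnt pathway, fell to 1.70 RPKM, against 11.9 RPKM (log2 -2.23). Pygo2, another cofactor gene, fell by 0.82 on the log2 scale. Ctnnb1, the gene of β-catenin, was the riser, at 46.3 RPKM in stimulated and 38.3 RPKM in unstimulated cells (log2 0.27, limma adjusted p = 0.0013).

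Most FOXO target genes were lower after stimulation. Of 12 listed targets 11 fell, none rose and 1 was not past the test (median log2 -1.89), against 10 falls after median centring, and 9 falls with 1 rise on summed allelic counts. Klf2, a quiescence factor, fell to 1.25 RPKM in stimulated cells, against 314 RPKM in unstimulated cells (log2 -7.13, limma adjusted p = 1.3e-07). S1pr1, the receptor for exit from lymphoid organs, fell by 4.34 on the log2 scale, Pik3ip1, an inhibitor of PI3K, by 3.39, and Il7r, the interleukin-7 receptor chain, to 23.2 RPKM, against 111 RPKM (log2 -2.21). Among 10 genes of the PI3K-AKT pathway that controls FOXO proteins 3 rose and 7 fell (3 and 6 after median centring). Sgk1, a kinase that phosphorylates FOXO proteins, fell to 5.35 RPKM in stimulated cells, against 33.8 RPKM in unstimulated cells (log2 -2.46). The regulatory subunit gene Pik3r1 fell as well (log2 -1.51), as did the mTORC2 component gene Rictor (log2 -1.42).

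Of the 3 E protein genes, Tcf12 fell to 4.27 RPKM in stimulated cells, against 13.4 RPKM in unstimulated cells (log2 -1.45, limma adjusted p = 3.3e-06), and Tcf4 to 0.461 RPKM, against 2.99 RPKM (log2 -1.43, limma adjusted p = 8.7e-05). Tcf4 was below an RPKM of 1 in every stimulated library and entered the test through the unstimulated group alone. Tcf3 had 28.2 RPKM in stimulated and 28.4 RPKM in unstimulated cells (limma adjusted p = 0.99), and was higher after median centring (log2 0.26, limma adjusted p = 0.011) and on summed allelic counts (log2 0.54, edgeR adjusted p = 0.00048). Of 5 genes for partners and relatives of BACH2 1 rose, 3 fell and 1 was not past the test (median log2 -0.86). Mafg, a small MAF partner gene, rose to 12.9 RPKM, against 5.76 RPKM (log2 1.06), while its relative Mafk fell to 9.10 RPKM, against 19.8 RPKM (log2 -1.04).

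Stem-like surface and survival genes mostly went down with Tcf7. Of 10 genes 8 fell, 1 rose and 1 was not past the test (median log2 -2.31). Slamf6, a receptor used to mark stem-like T cells, fell to 0.476 RPKM in stimulated cells, against 12.4 RPKM in unstimulated cells (log2 -3.19, limma adjusted p = 6.2e-07). It entered the test through the unstimulated group alone, and with an RPKM of at least 1 asked in all libraries 9 genes of the list were tested, of which 7 fell and 1 rose (median log2 -2.15). The interleukin-6 receptor gene Il6ra fell by 2.86 on the log2 scale, the lymphotoxin gene Ltb by 2.76 and the chemokine receptor gene Cxcr3 by 2.56. Effector-associated transcription factors were mixed, with 9 of 14 tested genes higher, 5 lower and a median log2 of 1.18. That median was 1.94, 1.96 and 1.81 without unstimulated replicate 1, 2 or 3, 1.94 with an RPKM of at least 1 in all libraries and 0.47 with no filter, as the genes tested changed from 14 to 13, 12 and 15. The largest rises were those of Irf4 (log2 3.74), which reached 223 RPKM in stimulated cells, against 15.7 RPKM in unstimulated cells, of Nfil3 (log2 3.52), Batf3 (log2 3.39) and Hif1a (log2 2.98). The 5 lower genes were Tox (log2 -2.77), Eomes (log2 -1.88), Zeb2 (log2 -1.87), Rora (log2 -1.46) and Prdm1 (log2 -0.63). Tox was below an RPKM of 1 in every stimulated library and entered the test through the unstimulated group alone. Zeb2 was highest in unstimulated replicate 3, at 14.9 RPKM, against 9.25 and 7.90 RPKM in unstimulated replicates 1 and 2. Markers of NK and myeloid cells fell after stimulation, with the sums given above, and were highest in that same library. The part of other cell types in the falls of these 5 genes was not tested.

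**Figure D3:**
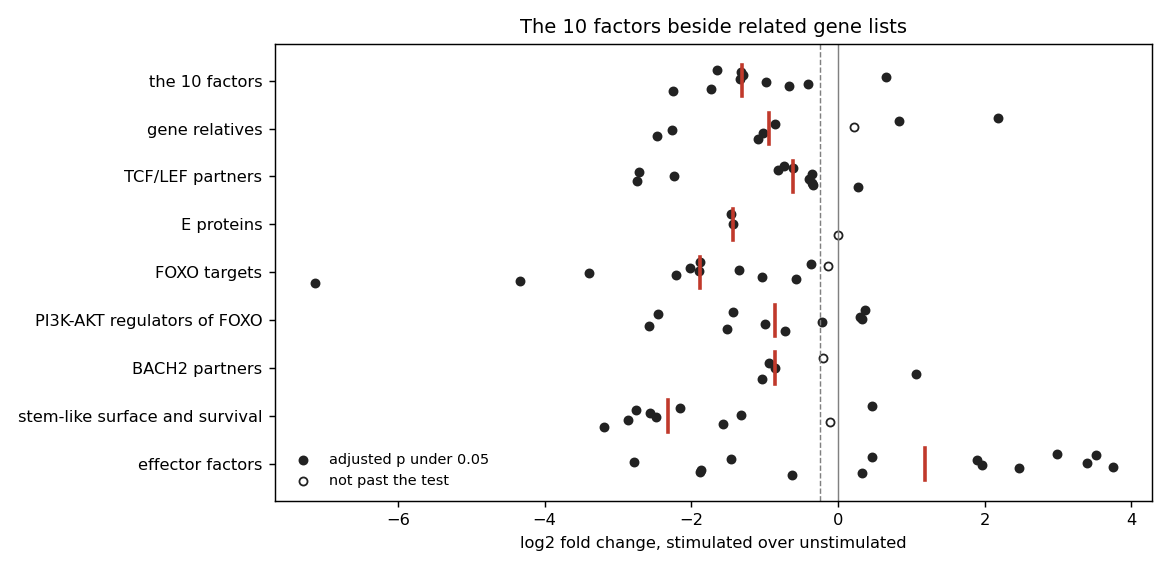
Log2 fold changes, stimulated over unstimulated, of the 10 regulators and of the tested genes of 8 related lists (filled, adjusted p under 0.05 by limma, open, not past the test), with a red bar at each list's median and a dashed line at the median of all tested genes, -0.24. Medians run from -2.31 for stem-like surface and survival genes to 1.18 for effector factors, a value moving with the filter.

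The hybrid genome gave a further measure, the share of allelic reads from the cast copy. The mus copy is maternal and the cast copy paternal for every autosomal gene, so effects of strain and of parent of origin cannot be told apart. Over all autosomal reads the cast share was 49.3% to 49.4% in the 6 libraries. All 10 regulators are autosomal and had at least 30 allelic reads per group. The cast over mus ratio differed between the groups for 3 of the 10, Foxp1, Bach2 and Foxo1 (edgeR interaction of allele and group, adjusted p under 0.05), where 10.9% of 12470 autosomal genes were called, 5.93% toward cast and 4.92% toward mus. These 3 genes are also expressed by B cells, whose markers fell, and the part of other cell types in these changes was not tested. Imbalance within stimulated cells was called for 5 of the 10, where 36% of autosomal genes were called, 15.4% with cast higher and 20.5% with cast lower. Imbalance within unstimulated cells was called for 3 of the 10, where 30.7% were called, 12.2% with cast higher and 18.5% with cast lower.

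Foxp1 shifted toward the mus copy. The cast share was 44.5%, 41.6% and 41.7% in stimulated replicates 1, 2 and 3, against 50.7%, 49.2% and 49.4% in the unstimulated ones. All stimulated shares, with upper 95% exact limits of 46.4%, 43.2% and 43.3%, lay below all unstimulated shares. The log2 ratio of cast to mus was -0.43 in stimulated cells (edgeR adjusted p = 3.3e-06) and -0.01 in unstimulated cells (edgeR adjusted p = 0.85), a change of -0.42 (edgeR adjusted p = 0.00057). Reads of the mus copy fell to 109.95 ± 5.28 allelic CPM, which are reads of a copy scaled to the allelic total of the library, in stimulated cells, against 272 ± 11.9 in unstimulated cells, and reads of the cast copy to 81.6 ± 3.87, against 269.7 ± 15.2 (SD, n = 3 each). Both copies were thus lower after stimulation, the cast copy by a larger factor. Exons of Gm20696, a protein-coding annotation on the same strand at 2.63 RPKM in stimulated and 15.8 RPKM in unstimulated cells, cover 2.18% of the exon bases of Foxp1, and how reads shared between genes were counted is not given in the sources used here.

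Bach2 shifted toward the cast copy. Its cast share was 55.5%, 55.01% and 52.2% in stimulated replicates 1, 2 and 3, against 49.03%, 49.2% and 49.3% in the unstimulated ones. The unstimulated shares lay within 1 percentage point of each other and below every stimulated share. The change of the log2 ratio was 0.29 (edgeR adjusted p = 0.014), and it was not past the test without stimulated replicate 1 (0.26, edgeR adjusted p = 0.067) or without stimulated replicate 2 (0.27, edgeR adjusted p = 0.064). Reads of the cast copy were at 121.6 ± 3.35 allelic CPM in stimulated and 163 ± 16.7 in unstimulated cells, and reads of the mus copy at 103 ± 4.77 and 169 ± 18.1 (SD, n = 3 each). Scaled with TMM library factors, the cast copy was at 134.5 in stimulated and 147.5 in unstimulated cells. The mus copy was then at 113.5 and 152.5, so the size of each fall depends on scaling.

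Foxo1 moved the same way by a smaller amount. The cast share was 55.1%, 52.4% and 54.3% in stimulated libraries, against 50.6%, 50.9% and 49.1% in unstimulated ones. Exons of the antisense gene Gm20402, at 0.123 RPKM in stimulated and 0.315 RPKM in unstimulated cells, cover 7.78% of the exon bases of Foxo1. The groups did not overlap, and the change of the log2 ratio was 0.22 (edgeR adjusted p = 0.0299). It ranged from 0.18 to 0.26 over the alternatives and was not past the test with DESeq2 (0.21, adjusted p = 0.075) or without any 1 of stimulated replicates 1 and 3 and unstimulated replicates 1 and 3 (edgeR adjusted p = 0.053 to 0.12). Within stimulated cells the imbalance itself was called under each alternative tried (log2 0.23, edgeR adjusted p = 0.00052).

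**Figure D4:**
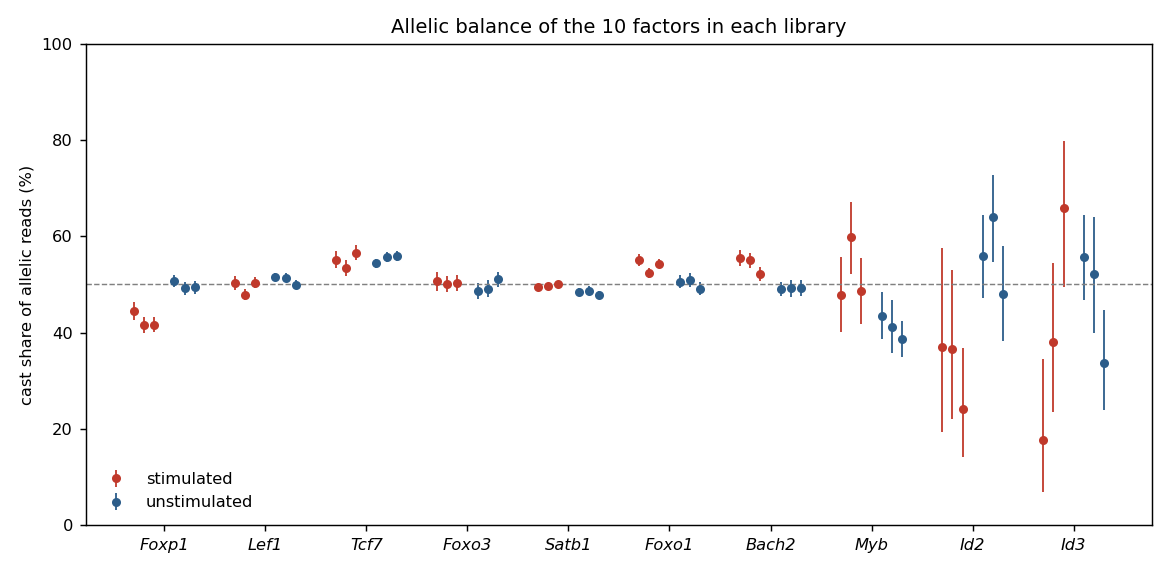
Cast share of allelic reads (%) of each gene in the 3 stimulated (red, left) and 3 unstimulated (blue, right) libraries, with 95% exact Clopper-Pearson intervals and a dashed line at 50%. Stimulated Foxp1 lies between 41.6% and 44.5%, Tcf7 lies above 50% in every library, and Id2 and Id3 have wide intervals.

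Tcf7 had a cast bias in both groups. Its cast share was 55.2%, 53.4% and 56.6% in stimulated libraries, against 54.4%, 55.7% and 55.9% in unstimulated ones. The groups overlapped, and the change of the log2 ratio was -0.01 (edgeR adjusted p = 0.94). The bias itself was past the test in both groups, with log2 ratios of cast to mus of 0.29 in stimulated (edgeR adjusted p = 5.9e-05) and 0.31 in unstimulated cells (edgeR adjusted p = 3.4e-05). Both copies were lower, the mus copy to 90.2 ± 0.89 allelic CPM in stimulated cells, against 396 ± 41.8 in unstimulated cells, and the cast copy to 110.7 ± 7.15, against 490.3 ± 48.6 (SD, n = 3 each).

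Satb1, with 11767 to 34752 allelic reads per library, was near balance throughout. The cast share was 49.5%, 49.7% and 50.2% in stimulated libraries, against 48.4%, 48.7% and 47.8% in unstimulated ones. The groups did not overlap but the change of the log2 ratio, 0.09, was not past the test (edgeR adjusted p = 0.17). The small mus bias in unstimulated cells passed (log2 -0.10, edgeR adjusted p = 0.01003), though not without unstimulated replicate 3 (log2 -0.08, edgeR adjusted p = 0.054). For Lef1 and Foxo3 the cast share stayed between 47.9% and 51.6% in all libraries, and neither the bias in a group nor its change was past the test.

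Myb, Id2 and Id3 had few allelic reads, and their shares are correspondingly uncertain. The cast share of Myb was 47.9%, 59.9% and 48.6% in stimulated libraries, against 43.5%, 41.1% and 38.7% in unstimulated ones, from 165 to 667 allelic reads per library. The groups did not overlap, and the change of the log2 ratio, 0.64, was not past the test (edgeR adjusted p = 0.095). The mus bias in unstimulated cells passed (log2 -0.52, edgeR adjusted p = 0.016), but neither without unstimulated replicate 2 (adjusted p = 0.060) nor without replicate 3 (adjusted p = 0.15), nor with DESeq2 (adjusted p = 0.054).

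Id2 had 27, 41 and 62 allelic reads in stimulated and 136, 117 and 106 in unstimulated libraries, although its RPKM was many times that of Id3, which had 34 to 131. The cast share of Id2 was 37.04%, 36.6% and 24.2% in stimulated libraries, against 55.9%, 64.1% and 48.1% in unstimulated ones. The groups did not overlap. The change of the log2 ratio, -1.46, was not past the test (edgeR adjusted p = 0.071), while the mus bias in stimulated cells was (log2 -1.11, edgeR adjusted p = 0.033) and was lost with DESeq2 (adjusted p = 0.060) and without stimulated replicate 2 (edgeR adjusted p = 0.052) or 3 (edgeR adjusted p = 0.26). For Id3 the share ran from 17.6% to 65.9% among stimulated libraries alone, where the exact 95% intervals of replicate 1 (6.76% to 34.5%) and replicate 3 (49.4% to 79.9%) did not overlap. The change of the log2 ratio was -0.38 and not past the test (edgeR adjusted p = 0.82).

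**Figure D5:**
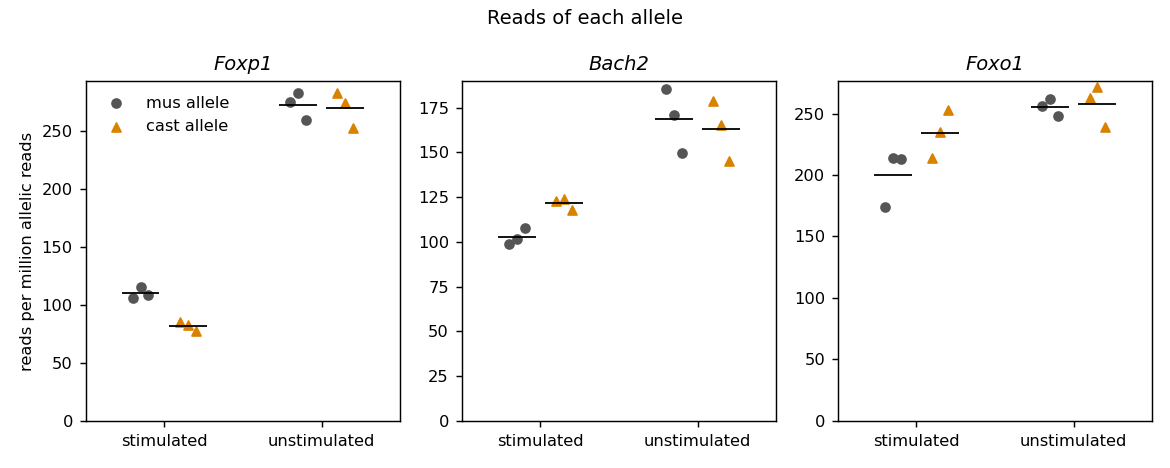
Reads of the mus (grey circles) and cast (orange triangles) copies in allelic CPM (counts scaled to the allelic total) for Foxp1, Bach2 and Foxo1, with 3 stimulated libraries left of 3 unstimulated ones in each panel and a line at each mean. The copies are close together in unstimulated cells, while in stimulated cells the mus copy is the higher one for Foxp1 and the lower one for Bach2 and Foxo1. The mean of the Foxo1 cast copy was 234 in stimulated and 258 in unstimulated cells. With TMM library factors it was 259 and 233, so its direction depends on scaling.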

How the data were processed

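RNA of splenic CD3+ T cells, isolated with enrichment columns, was made into stranded total RNA libraries after removal of ribosomal RNA, per the labels' protocols. STAR 2.7.1a, featureCounts and mm10 are named, per the submitters' processing notes. The authors deposited RPKM for both alleles together and whole-number counts per allele. The allele assignment, annotation, gene lengths, strand setting and RPKM denominator have no statement in the sources used here. Positions come from GENCODE M21, which matched 49412 of the 49671 gene identifiers.

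Levels were compared with limma 3.58.1 (trend, two-sided, R 4.3.3) on log2(RPKM + 1). Genes entered where 3 or more libraries reached an RPKM of 1, with Benjamini-Hochberg adjustment over all of them and a threshold of 0.05. Fold changes on this scale understate the change of low genes. Allelic counts were compared with edgeR 4.0.16 (quasi-likelihood, two-sided, 1 term per library, TMM factors of summed counts) for autosomal genes with at least 30 allelic reads in each group, and with DESeq2 1.42.0 as an alternative. Both steps were tested on simulated data with few genes changed, drawn equally in both directions, while in the real expression data most genes were called. That test therefore does not bear on how the results depend on scaling. Intervals cover counting error only.

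The 10 genes and all gene lists were chosen with earlier results of these data known, and no set test was run. Of each list up to 4 genes past the limma threshold with the largest changes were named, and all 10 members were named. Ctnnb1, Foxp4, Tcf3, Ncr1, Adgre1, Tox, Eomes, Zeb2, Rora and Prdm1 were added after their values were seen. A gene result that the rule would name is not reported here. A symbol on 2 rows was represented by the row with the higher mean RPKM, and Tle5 was found as Aes. Replicates of a group differed by more than sampling noise. That they came from separate animals is known only from the word biological in the titles, and otherwise p-values measure the spread between these libraries. Equal replicate numbers deviated together in allelic ratios (correlations across 9043 genes of 0.28, 0.30 and 0.18 for numbers 1, 2 and 3) and not in log2 RPKM (0.00603, 0.0611 and 0.0908).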

Additional observations from a re-analysis of the deposited data

Results flagged for a closer look

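The ratio of cast to mus reads differed between stimulated and unstimulated cells for 3 of the 10 genes, by the edgeR test of the interaction of allele and group, and these changes had both directions. On the log2 scale the change was -0.42 for Foxp1 (adjusted p = 0.00057), 0.29 for Bach2 (adjusted p = 0.014) and 0.22 for Foxo1 (adjusted p = 0.0299). In each of them the 3 stimulated shares lay on the same side of all 3 unstimulated shares. This was also so for Satb1, Id2 and Myb, which were not called. How many autosomal genes were separated in this way was not counted, so the separation adds nothing to the test. The part of other cell types in these changes was not tested. The change of Foxp1 passed under each of 11 alternatives (-0.47 to -0.39, adjusted p = 2.1e-06 to 0.0048), that of Bach2 under 9 of 11 and that of Foxo1 under 6 of 11.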

How the results depend on the processing

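The fall of 8 of the 10 genes and the rise of Satb1 kept their direction and passed under each of 14 alternatives. The exception was Foxo1, which was not past the test after median centring (-0.15) or with DESeq2 on summed allelic counts (-0.02), and was 0.00945 with edgeR on summed allelic counts. Of all genes 10642 passed (4148 higher, 6494 lower), with 5432 higher and 5206 lower after median centring, 5394 and 4878 after quantile normalisation, and 8457 to 9707 calls on leaving out 1 library. Genes with a changed allelic ratio numbered 1353, and 1001 to 1108 without any 1 library. Among the 10 genes 1 to 3 changes of the allelic ratio were called on leaving out 1 library, with 1 without stimulated replicate 1, and 1 to 3 imbalances in unstimulated cells, with 1 without unstimulated replicate 3. With the replicate block 10464 genes passed for expression and 1686 for a changed allelic ratio, and it changed no call of the 10 genes. Imbalance in stimulated cells was called for 4486 genes and in unstimulated cells for 3826. Few allelic reads limit what can be said of Id2, Id3 and Myb.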

Other observations

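Ratios between the genes, per length and within each library, are given as descriptions. Foxo1 over Foxo3 was 1.996, 2.07 and 2.03 in stimulated libraries, against 1.34, 1.39 and 1.27 in unstimulated ones. Foxo1 over Foxp1 was 1.94, 2.24 and 2.35 in stimulated libraries, against 1.08, 1.12 and 1.11 in unstimulated ones. Neither pair of ranges overlapped. A ratio within a library does not depend on a constant scaling factor of that library, but it can change under quantile normalisation. Tcf7 over Lef1 was 3.51, 2.98 and 3.05 in stimulated libraries, against 4.10, 4.37 and 4.87 in unstimulated ones. Id2 over Id3, at 8.89, 10.3 and 13.05 in stimulated and 6.54, 9.85 and 11.1 in unstimulated libraries, overlapped between the groups. The summed RPKM of Id2 and Id3 over that of the E protein genes Tcf3, Tcf4 and Tcf12 was 0.953, 1.15 and 1.38 in stimulated libraries, against 2.11, 2.30 and 2.07 in unstimulated ones, so that the inhibitors' transcripts were lower relative to those of their targets in every stimulated library. Id2 is also abundant in NK cells, whose markers fell, and the part of other cell types in this ratio was not tested.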
